A study of Zea mays with 45 samples.

Results

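The elongation zone of the growing maize leaf, 3 to 4.5 cm above the ligule, was followed through 1 normal night by comparing leaf tissue taken at the end of the night with tissue taken at the end of the day. The comparison used every elongation-zone array of these 2 times that holds values, which are 2 end-of-day and 3 end-of-night arrays, or 5 of the 42 arrays with values (45 samples are labelled). All plants were genotype SL (KWS Einbeck) and grew under 14 h of light at 700 µE PAR and 10 h of dark. The chamber was set to 25 °C by day and 22 °C by night, with an effective 29 °C or so at the plants by day. Each sample pooled 5 plants and was hybridised to an Affymetrix maize array. The other samples of the study are the division zone (0 to 1.5 cm above the ligule) and the mature zone at the same times, and all 3 zones once the night had been prolonged, with night conditions kept on, by 6, 14 or 24 h. Light, temperature and clock hour all differ between the end of the day and the end of the night, and their parts cannot be told apart here. Bulk tissue was measured, so fewer cells of a type and less RNA per cell cannot be told apart either.

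In a grass leaf, cells divide at the base, are displaced upwards while they expand, and become photosynthetic further along the blade, so the elongation zone holds expanding cells whose plastids are still maturing. By day the leaf exports sucrose and stores starch, and at night growing tissue lives on that store and on imported sugar. Many plant genes follow the day through light signals, sugar signals and the circadian clock; genes of thiamine synthesis, light harvesting and starch synthesis are textbook examples.

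Over the normal night 1106 of 17555 probe sets changed in the elongation zone (6.30%), 477 upwards (2.72%) and 629 downwards (3.58%), at an adjusted p under 0.05 in limma's moderated test (Benjamini-Hochberg adjustment over all probe sets). A probe set that passed this test is called here, and all differences are end of night minus end of day on the log2 scale. Many calls were small. Their median size was 0.51, 541 were under 0.5, and 65 rises (0.370%) and 60 falls (0.342%) reached 1, while the median of all probe sets was 0.013. Calls ran from -4.64 to 3.67, and the smallest was 0.22. The annotation names 1108 genes, of which 90 were called through their brightest probe set (8.12%), 50 higher and 40 lower. This share belongs beside the counts in gene lists below, and a small list cannot show a lack of change. None of the 66 reporter and selection probe sets, which have no maize target, was called.

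The count depended on single arrays. Leaving out end-of-day replicate 1 left 333 calls, leaving out end-of-day replicate 2 left 604, and leaving out end-of-night replicate 3 left 686; without end-of-night replicate 1 or 2 there were 776 and 907. The balance of directions depends on scaling: 43.1% of calls were rises on the deposited values, and 57.7% (585 rises and 428 falls) once each array was centred on its median. Array medians in the 5 libraries ran from 7.56 to 7.63. Calls near the threshold are therefore less secure, and size alone does not mark a secure call. *ivr2* (1.43) and *hsp22* (-1.26) lost their calls without an end-of-day array, while *ccp1* (-0.63) kept its call throughout. Of the 47 called genes that are named, 24 kept their call without each of the 5 arrays in turn and in each alternative that tested them (*hsp26* and *hsp18f* were not tested once dim probe sets were left out).

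The tissue was checked against marker genes of leaf cell types. Dividing-cell genes such as *pcna1*, the replication clamp, and *cyc3*, a cyclin, had high signals here: in end-of-day tissue all 5 markers were lower in the mature zone than here, while 1 of 5 was lower here than in the division zone. Expansion genes marked the zone more sharply: *expB4*, a beta-expansin that loosens walls, *expA4*, an alpha-expansin, and *tub4*, a beta-tubulin, were above the division zone by 2.41 ± 0.19, 1.10 ± 0.24 and 2.80 ± 0.27 (SE; limma adjusted p = 9.1e-12, 0.00037 and 4e-10). The markers *expA1* and *xet1* of the same list did not mark it, being higher in the mature zone than here by 4.19 and 5.83. Some C4 genes were near or below the dim level of 6.20 (the 95th percentile of reporter probe sets in these arrays): *pep1*, which fixes carbon in mesophyll, had a mean end-of-day signal of 6.28 here and 14.33 in mature tissue. The meristem gene *kn1* was below that level, with a mean of 5.41. Over the night 0 of 5 dividing-cell, 0 of 5 expansion, 0 of 3 bundle sheath, 0 of 4 secondary wall, 0 of 3 epidermis and 0 of 2 meristem markers were called, and 1 of 4 mesophyll markers, *PSBQ1*, rose. Over all named genes 8.12% were called, so sets of 2 to 5 markers without a call do not show a lack of change. Among the markers not called, *expA1*, *cncr1*, *ocl1*, *gl1*, *pep1*, *rbcS* and *rca1* passed in 1 or more alternative fits.

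Both thiamine genes on the array fell, and *thi1* fell furthest of the named genes. *thi1* and *thi2* encode the enzyme that makes the thiazole ring of vitamin B1, whose cofactor serves central carbon metabolism. The *thi1* signal was 11.04 and 10.85 on the end-of-day arrays and 7.10, 6.95 and 6.46 on the end-of-night arrays. For *thi2* the values were 12.85 and 12.59 by day and 9.90, 10.09 and 9.33 at the end of the night. Day and night values lay far apart in both genes, with end-of-night replicate 3 the lowest. *thi1* fell by 4.11 ± 0.29 (SE, 2 against 3 arrays; 17.2-fold lower; limma adjusted p = 6e-12) and *thi2* fell by 2.95 ± 0.26 (7.72-fold lower; limma adjusted p = 6.6e-10).

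**Figure D1:**
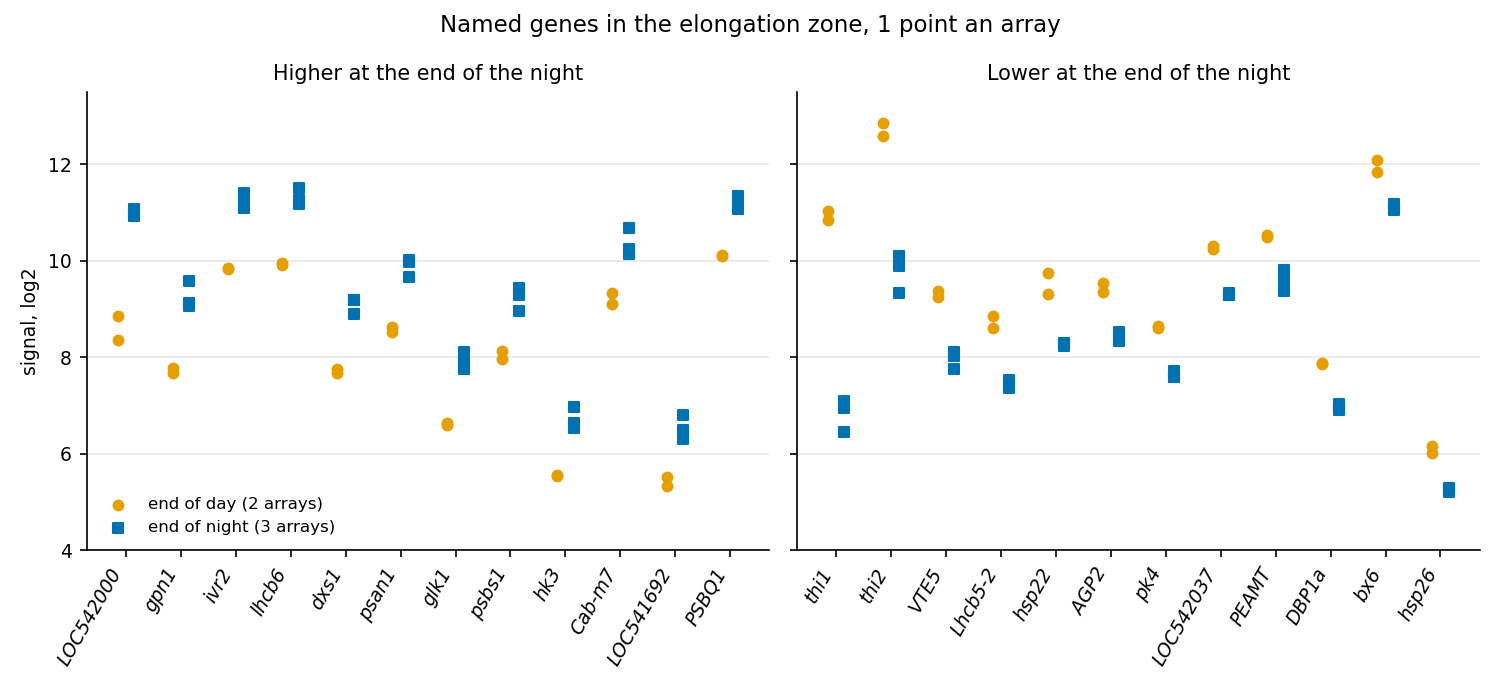
Log2 signal (y axis) of the 12 named genes with the largest called rise (left) and the 12 with the largest called fall (right) in the elongation zone. Each point is 1 array, with circles for the 2 end-of-day arrays and squares for the 3 end-of-night arrays. The widest gap between the 2 sets of points is that of *thi1*. The genes were chosen on these same arrays, so the gaps are no further evidence.

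Genes for the photosystems and their antennae moved against this direction. Of 9 on the array, 6 rose, 1 fell and 2 did not pass the test, with a median of 1.08. Photosystem I subunits *psan1* and *psah1* rose by 1.31 ± 0.14 (limma adjusted p = 8.5e-08) and 1.05 ± 0.13 (8.4e-07). In photosystem II, *PSBQ1*, a subunit of the oxygen-evolving complex, rose by 1.08 ± 0.14 (2.7e-06), and *psbs1*, which switches excess light energy into heat, rose by 1.18 ± 0.17 (1.2e-05). A pair of antenna genes rose as well, *lhcb6* (CP24) by 1.37 ± 0.20 (1.4e-05) and *Cab-m7*, a chlorophyll a/b binding protein, by 1.13 ± 0.23 (0.0013).

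Per array, *lhcb6* read 9.92 and 9.96 at the end of the day and 11.17, 11.27 and 11.51 at the end of the night, and 2 of its 3 other probe sets were called too. *psah1* read 9.59 and 9.47 against 10.70, 10.42 and 10.61. *PSBQ1* read 10.12 and 10.11 against 11.18, 11.07 and 11.34. Day and night values did not overlap in any of the 6, which is no further evidence since they were called on these same arrays. The end-of-day pairs agreed closely. The only called fall in the list was that of *Lhcb5-2*, an antenna gene by its symbol. It read 8.86 and 8.61 by day and 7.52, 7.37 and 7.43 at the end of the night, and fell by 1.29 ± 0.11 (limma adjusted p = 1.7e-10). All 7 calls held without each of the 5 arrays in turn.

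*glk1* and *dxs1* were also among the largest rises. *glk1*, a transcription factor that drives chloroplast development, read 6.60 and 6.64 at the end of the day and 7.90, 7.75 and 8.11 at the end of the night, a rise of 1.30 ± 0.15 (limma adjusted p = 2.3e-07). *dxs1*, the entry enzyme of the plastid isoprenoid pathway that feeds chlorophyll and carotenoids, read 7.67 and 7.76 against 9.18, 8.90 and 9.18 and rose by 1.37 ± 0.15 (6e-08). Day and night values were more than 1 log2 unit apart in each. Of 8 genes of chlorophyll and carotenoid synthesis, 2 rose and 6 did not pass (median 0.38), and 6 of the 8 had an unadjusted p under 0.05. The rises were those of *HYD3*, a carotenoid hydroxylase, by 0.67 ± 0.20 (limma adjusted p = 0.038) and *por*, which reduces protochlorophyllide in the light, by 0.41 ± 0.12 (0.038). Neither is secure, since *por* lost its call without any 1 of the 5 arrays (adjusted p up to 0.44) and *HYD3* without either end-of-day array or end-of-night replicate 1 or 3 (up to 0.25). Of 6 electron transport partners only *L-FNRII*, leaf ferredoxin-NADP reductase, was called, at 0.53 ± 0.16 (limma adjusted p = 0.037), and it lost its call without either end-of-day array or end-of-night replicate 1 or 3 (up to 0.28).

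Among the 11 Calvin and C4 genes on the array 0 were called in limma, with a median of -0.02, and 3 had an unadjusted p under 0.05. *pep1* was 0.76 ± 0.27 higher (limma adjusted p = 0.10), *rbcS*, the small subunit of Rubisco, 0.42 ± 0.14 higher (0.069), and *rca1*, Rubisco activase, 0.39 ± 0.13 higher (0.073). All 3 passed under some alternatives: *pep1* in the 5 compared arrays alone (adjusted p 0.0048), *rbcS* there (0.019), with array weights (0.021) and with arrays centred (0.048), and *rca1* with array weights (0.024) and without end-of-night replicate 2 (0.045). *pdk1* and *me3*, also of the C4 cycle, differed by 0.11 ± 0.20 and -0.02 ± 0.11. The summed signal of the 4 mesophyll markers, *PSBQ1* among them, lay at 11.10 to 11.16 on the end-of-day arrays and 11.63 to 11.92 on the end-of-night arrays. That of the 3 bundle sheath markers lay at 10.51 to 10.52 and 10.84 to 10.97 (log2 of summed signals). Such sums follow the brightest members. The bundle sheath sum is mostly *rbcS*, with an end-of-day mean of 10.37 against 6.85 for *me3* and 4.62 for *rca1*, the last below the dim level. The mesophyll sum is mostly *PSBQ1* (10.11) and *mdh6* (9.99), and *mdh6* differed by -0.05 over the night. The part of these markers in the photosystem result was not tested.

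**Figure D2:**
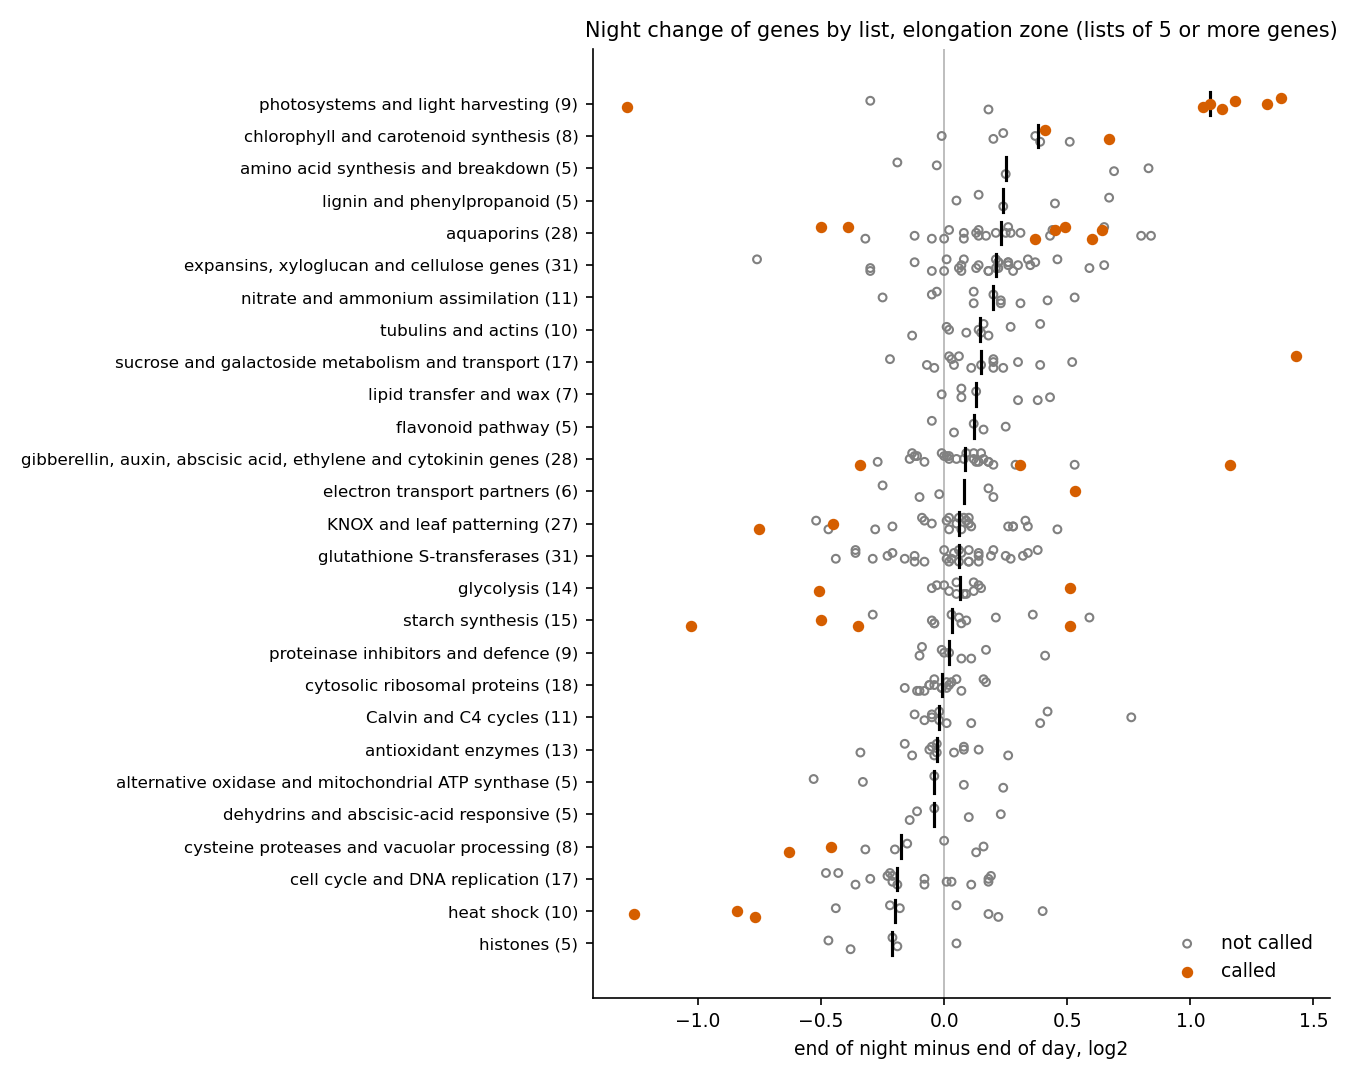
Night change in the elongation zone (x axis, end of night minus end of day, log2) of each gene in the lists with 5 or more genes on the array, 1 point a gene, with the number of genes in brackets. Filled points were called and open points were not; the black bar is the list median, which is highest for photosystems and light harvesting at 1.08 and lowest for histones at -0.21.

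The direction of the night change differed between classes of probe sets set by their zone difference. Zone differences were taken from the arrays at 6 h of extended night, which are not part of the night comparison. These classes were set after the data were seen. The 6 h arrays follow the end of the night, so a night change that lasted in 1 zone can itself place a probe set in a class. The classes are therefore not independent of the night change, and how far this shaped the shares was not tested. Of 900 probe sets at least 1 log2 unit higher in the elongation than in the division zone, 143 rose over the night (15.9%) and 12 fell (1.33%). Of 691 at least 1 higher in the division zone, 6 rose (0.868%) and 57 fell (8.25%). Among 2980 at least 1 higher in mature than in elongation-zone tissue, 226 rose (7.58%) and 110 fell (3.69%). Medians of the night change in these 3 classes were 0.17, -0.18 and 0.06. Over all probe sets 2.72% rose and 3.58% fell. With a difference of at least 2 the shares were 16.8% and 0.526% of 190 probe sets for the class higher in elongation than division tissue, and 11.3% and 3.18% of 1258 for the class higher in mature tissue. For the class higher in division tissue that cut left 67 probe sets, of which 2 rose (2.99%) and 3 fell (4.48%), close to the shares over all probe sets. The positions at which the day and night samples were cut were not measured here, and the part of position in the photosystem result was not tested. At the end of the day *pep1*, *pdk1*, *me3* and *rca1* were 8.05, 8.26, 7.11 and 7.8 higher in mature than in elongation-zone tissue. Over the night they differed by 0.76, 0.11, -0.02 and 0.39. None of these was called in the main fit, while *pep1* and *rca1* passed in some alternatives. What these values say of position was not tested.

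**Figure D3:**
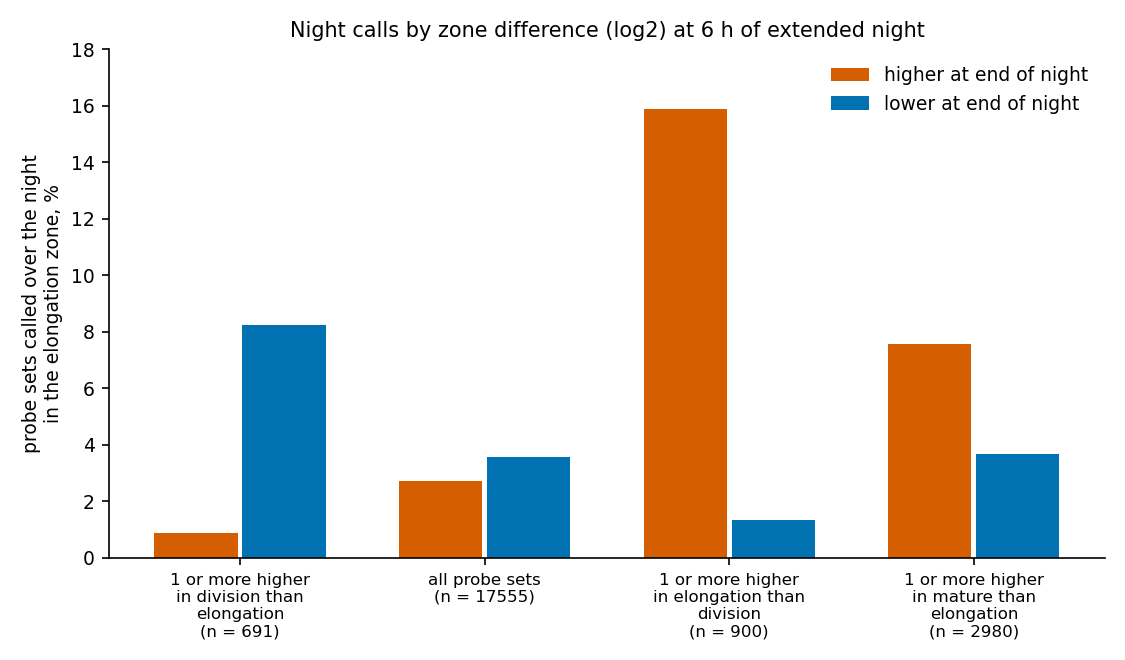
Share of probe sets called over the night in the elongation zone (y axis, %), by direction, for 3 classes of zone difference at 6 h of extended night and for all probe sets; n is the number of probe sets in each class. Rises make up 15.9% of the class higher in elongation than division tissue and 0.868% of the class higher in division tissue, at a cut of 1 log2 unit for each class. The classes are not independent of the night change, since the 6 h arrays follow the end of the night.

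*VTE5* and *AGP2* were among the largest falls. *VTE5*, phytol kinase of the tocopherol pathway, read 9.37 and 9.26 by day and 8.02, 8.10 and 7.76 at the end of the night and fell by 1.35 ± 0.14 (limma adjusted p = 6e-08). *AGP2*, a subunit of ADP-glucose pyrophosphorylase, the committed step of starch synthesis, read 9.54 and 9.36 against 8.34, 8.52 and 8.40 and fell by 1.03 ± 0.11 (8.7e-08). Both stood clear of the day values on every end-of-night array, which their choice from these same arrays favours. Of 15 starch synthesis genes 3 fell, 1 rose and 11 did not pass, with a median of 0.03. Changes ran from -1.03 to 0.59 and 8 of the 15 had an unadjusted p under 0.05, so the list did not move in 1 direction. The other falls were small: *waxy*, granule-bound starch synthase, by 0.50 ± 0.11 (limma adjusted p = 0.0022; 0.26 without end-of-day replicate 1) and *agpsl1*, a small subunit of the same pyrophosphorylase, by 0.35 ± 0.10 (0.029; up to 0.26, and lost without either end-of-day array or end-of-night replicate 1 or 2). *sh2*, a large subunit, rose by 0.51 ± 0.14 (0.026; up to 0.37, and lost without end-of-day replicate 2 or end-of-night replicate 1 or 3), at signals from 5.46 to 6.24 that straddle the dim level. The call of *agpsl1* was also lost when arrays were centred on their medians. Starch degradation was represented by *amy5*, an alpha-amylase, and *zpu1*, a debranching enzyme, at 0.20 ± 0.13 and 0.03 ± 0.15, and 0 of 2 were called.

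Sugar use gave a few single calls. *ivr2*, the vacuolar acid invertase that splits sucrose in expanding cells, read 9.83 and 9.85 at the end of the day and 11.31, 11.10 and 11.40 at the end of the night, a rise of 1.43 ± 0.33 (limma adjusted p = 0.0051). The adjusted p rose to as much as 0.08 when either end-of-day array was left out. *ivr2* was the sole call among 17 sucrose and galactoside genes (median 0.15). *gpn1*, a glyceraldehyde-3-phosphate dehydrogenase that bypasses a step of glycolysis without making ATP, read 7.67 and 7.78 against 9.12, 9.06 and 9.58 and rose by 1.53 ± 0.14 (limma adjusted p = 3.1e-09). Within glycolysis itself 2 of 14 genes were called. *pfk1*, phosphofructokinase by its symbol, rose by 0.51 ± 0.10 (0.0016) and *pdc3*, pyruvate decarboxylase, fell by 0.51 ± 0.12 (0.009), and both calls were lost without end-of-day replicate 1 (adjusted p 0.086 and 0.16).

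Some heat shock genes were lower at the end of the night. Of 10 on the array 3 fell, none rose and 7 did not pass (median -0.20): *hsp22*, *hsp26* and *hsp18f*, all small heat shock proteins that hold unfolding proteins in solution. *hsp22* read 9.31 and 9.74 by day and 8.24, 8.29 and 8.25 at the end of the night and fell by 1.26 ± 0.30 (limma adjusted p = 0.0071), a call lost without end-of-day replicate 2 (adjusted p 0.15). *hsp26* fell by 0.84 ± 0.12 (1.8e-05) and *hsp18f* by 0.77 ± 0.13 (0.00012), both at signals below the dim level throughout. *DBP1a*, a DREB2-type factor of heat and drought responses, read 7.86 and 7.89 against 7.04, 6.96 and 6.91 and fell by 0.90 ± 0.12 (3e-06). *bx6*, an enzyme of benzoxazinoid defence compounds, fell by 0.86 ± 0.26 (0.039), but that call was lost without any 1 array (up to 0.39) and when arrays were centred. Of 9 proteinase inhibitor and defence genes 0 were called in limma and 0 had an unadjusted p under 0.05 (median 0.02). *PEAMT*, which makes phosphocholine for membranes, fell by 0.92 ± 0.20 (0.0041; 0.073 without end-of-day replicate 1). The day samples came from the warmer part of the day cycle, and its part in these falls was not tested.

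Hormone and energy signalling held 4 calls among 30 genes. *hk3*, a histidine kinase receptor for cytokinin, read 5.53 and 5.57 by day, below the dim level, and 6.54, 6.63 and 6.96 at the end of the night, and rose by 1.16 ± 0.15 (limma adjusted p = 3.2e-06). *RR10*, a response regulator of the same pathway, rose by 0.31 ± 0.07 (0.0062; up to 0.085, and lost without either end-of-day array or end-of-night replicate 3). *abp4*, an auxin-binding protein, fell by 0.34 ± 0.09 (0.014), a call lost without end-of-day replicate 1 (0.25) and when arrays were centred. *SnrK1*, named for the kinase that senses low energy, read 6.99 and 7.05 against 7.65, 7.64 and 7.90 and rose by 0.71 ± 0.17 (0.0095; up to 0.14, and lost without either end-of-day array or end-of-night replicate 3), while its relative *akin1* differed by 0.14 ± 0.07 and did not pass. The hormone list as a whole had a median of 0.09, with 25 of 28 genes not passing.

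Few growth and turnover genes were called, beside 8.12% of all 1108 named genes. At that share, lists of the sizes below can hold few calls or none, so their counts do not show a lack of change. *GRF2* and *GRF5*, growth-regulating factors by their symbols, fell by 0.75 ± 0.16 (limma adjusted p = 0.0024) and 0.45 ± 0.13 (0.034). The call of *GRF5* was lost without end-of-day replicate 1 or end-of-night replicate 1 or 3 (up to 0.56) and when arrays were centred. Of the 27 leaf patterning genes 25 did not pass, and 7 had an unadjusted p under 0.05. Of 8 cysteine proteases 2 fell and 6 did not pass (median -0.18). *ccp1* read 12.14 and 12.02 by day and 11.47, 11.51 and 11.37 at the end of the night, a fall of 0.63 ± 0.08 (2.3e-06), and *see2b*, a vacuolar processing enzyme raised in senescence, fell by 0.46 ± 0.13 (0.023), a call lost without 4 of the 5 arrays (up to 0.28; end-of-night replicate 2 is the exception) and when arrays were centred. By contrast 0 of 17 cell cycle genes (median -0.19), 0 of 5 histones (-0.21), 0 of 18 cytosolic ribosomal protein genes (-0.01), 0 of 31 expansin, xyloglucan and cellulose genes (0.21) and 0 of 10 tubulins (0.15) were called in limma. At an unadjusted p under 0.05 these lists gave 1, 0, 0, 2 and 1. *expA1*, with the highest change of the expansin list (0.65), passed in some alternatives. Its limma adjusted p was 0.02 in the elongation-zone arrays alone, 0.013 in the 5 compared arrays alone and 0.024 with array weights. None of 11 nitrate and ammonium assimilation genes, 31 glutathione S-transferases or 13 antioxidant enzymes passed, and 2, 4 and 1 of them had an unadjusted p under 0.05.

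Water channels were the growth-related family with the most calls: of 28 aquaporins 5 rose, 2 fell and 21 did not pass (median 0.23). An unadjusted p under 0.05 was found for 15 of the 28. *pip2-5*, a plasma membrane water channel, read 6.36 and 6.11 at the end of the day and 6.82, 6.80 and 6.99 at the end of the night and rose by 0.64 ± 0.12 (limma adjusted p = 0.00048), a call held without each array. *nip3a* rose by 0.60 ± 0.13 (0.002; 0.085 without end-of-day replicate 2) and *PIP1-3* by 0.45 ± 0.11 (0.012; 0.31 without end-of-day replicate 1). *pip2b* and *pip2c* rose by 0.49 ± 0.15 and 0.37 ± 0.12 (0.048 each); *pip2b* lost its call without any 1 array and *pip2c* without either end-of-day array or end-of-night replicate 1 or 3 (up to 0.30 and 0.33), and both lost it in the fit with replicate number as a block. *SIP1-1* fell by 0.39 ± 0.10 (0.018), lost without end-of-day replicate 1 or end-of-night replicate 3 (up to 0.42) and when arrays were centred.

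Several of the strongest changes belonged to genes or probe sets with no described product in the tables used. LOC542000 had the largest rise of any named gene, reading 8.36 and 8.85 at the end of the day and 10.98, 10.92 and 11.07 at the end of the night (2.39 ± 0.40, limma adjusted p = 0.00015). LOC541692 rose by 1.11 ± 0.17 (6.1e-05). Its second probe set gave 0.21 and was not called. *pk4* fell by 0.99 ± 0.11 (2.9e-07), and LOC542037 fell by 0.97 ± 0.29 (0.038), the latter lost without any 1 array (up to 0.27) and with replicate number as a block. Without a gene name, probe set Zm.10293.1.S1_at rose from 4.29 and 3.84 to 7.75, 7.49 and 7.97 (3.67 ± 0.22), and Zm.8958.1.A1_at fell from 9.30 and 9.29 to 4.79, 4.73 and 4.45 (-4.64 ± 0.18). Zm.5979.1.A1_at rose by 2.59 ± 0.13 and Zm.6774.1.A1_at differed by -3.74 ± 0.17, and all 4 calls held without each array. The end-of-day signals of Zm.10293.1.S1_at and the end-of-night signals of Zm.8958.1.A1_at and Zm.6774.1.A1_at lay below the dim level of 6.20, so the sizes of these changes rest on signals near those of the reporter probe sets.

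Set beside the normal night in the division zone, the elongation zone changed a similar number of probe sets. There 1142 were called (6.51%), and 431 were called in both zones, which is 39.0% of the elongation calls and 37.7% of the division calls; 138 rose in both, 287 fell in both and 6 went opposite ways. The median division-zone change of the elongation rises was 0.22 (0.53 in the elongation zone) and that of the falls -0.30 (-0.49). The test of the difference itself called 103 probe sets (0.587%), 89 of them with the higher value in the elongation zone and 14 with the lower. That count fell to 26, 41, 62 and 56 without end-of-day replicate 1, end-of-day replicate 2, end-of-night replicate 1 or end-of-night replicate 3. Whether the zones of a time were cut from the same pools of plants is not said in the labels, and the fit treats their arrays as independent. Same-numbered arrays of the 2 zones deviated together at the end of the night (correlations 0.279, 0.206 and 0.328). At the end of the day the correlations were 0.065 and -0.03, which decide little because the deviations of the 2 elongation-zone arrays mirror each other. Replicate numbers were then taken as a block within each time, in the 29 arrays of the 2 zones. The difference was called for 768 probe sets, 442 higher and 326 lower, against 251 in the same arrays without the block. This fit with the block was added after the data were seen. It called 102 of the 103 again. The named genes with the largest differences were mostly ones that rose in the elongation zone with little change below it: *gpn1* differed by 1.48 ± 0.19 (0.05 in the division zone; limma adjusted p = 2.6e-05), LOC542000 by 2.26 ± 0.54 (0.13; 0.042), *glk1* by 1.08 ± 0.20 (0.22; 0.0052) and *psbs1* by 0.94 ± 0.22 (0.24; 0.042, and 0.05 and not called with the block). *hsp26* fell further in the elongation zone by 0.76 ± 0.16 (-0.07 in the division zone; 0.018), at signals below the dim level, and *sh2* differed by 0.90 ± 0.19 (-0.39; 0.018). The photosystem list moved in the division zone as well, where 5 of its 9 genes rose and 2 fell (median 0.62). Of the 9 only *psbs1* and *lhcb5*, an antenna gene, differed between the zones. *lhcb5*, named here after its values were seen, fell by 1.29 in the division zone and differed by 0.99 ± 0.14 (limma adjusted p = 0.00015). *lhcb6* differed by 0.76 ± 0.26 (0.32), which was called with the block (0.012). Thiamine genes were not among those that differed, since *thi1* and *thi2* fell by 3.42 and 2.28 in the division zone and the differences were -0.69 ± 0.39 and -0.67 ± 0.34 (limma adjusted p = 0.77 and 0.71).

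In the mature zone far more probe sets were called over the same night, 7113 (40.5%), and this count is given for the main fit alone. Of the elongation calls 717 were called there as well, 64.8% of the elongation calls and 10.1% of the mature calls, and 109 of these went opposite ways. The test of the difference called 4343 (24.7%). All photosystem rises of the elongation zone lacked a call in the mature zone, where the list's 9 genes gave 0 calls and a median of 0.04, and 8 of the 9 differed between the zones; *lhcb6* differed most, by 1.40 ± 0.28 (-0.03 in the mature zone; limma adjusted p = 0.00026). *PSBQ1* had a mean end-of-day signal of 13.87 there against 10.11 in the elongation zone. The part of signal level in the missing calls was not tested. *thi2* fell by 4.37 in the mature zone, 1.42 ± 0.36 more than here (0.0036), and *thi1* by 3.89 against 4.11 (difference -0.22 ± 0.41, 0.76). *pip2b* and *pip2c* rose by 2.93 and 1.81 in the mature zone, so that the differences were -2.44 ± 0.22 (3e-10) and -1.44 ± 0.16 (4.5e-08). *sh2* fell there by 0.88, so the zones differed by 1.39 ± 0.20 (3.6e-06), and LOC542000 rose by 0.21, a difference of 2.18 ± 0.57 (0.0043). Median within-group SDs were 0.103 in the division, 0.112 in the elongation and 0.188 in the mature zone, so the shared SE fits the mature zone least well. The mature end-of-night arrays agreed least closely, with lowest within-group correlations of 0.963, 0.969 and 0.963, against 0.996 for each elongation-zone end-of-night array. Replicate 3 of them had the lowest array weight in the study, 0.098. The mature-zone counts and differences above include that array at full weight. With array weights the difference was called for 4739 probe sets.

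**Figure D4:**
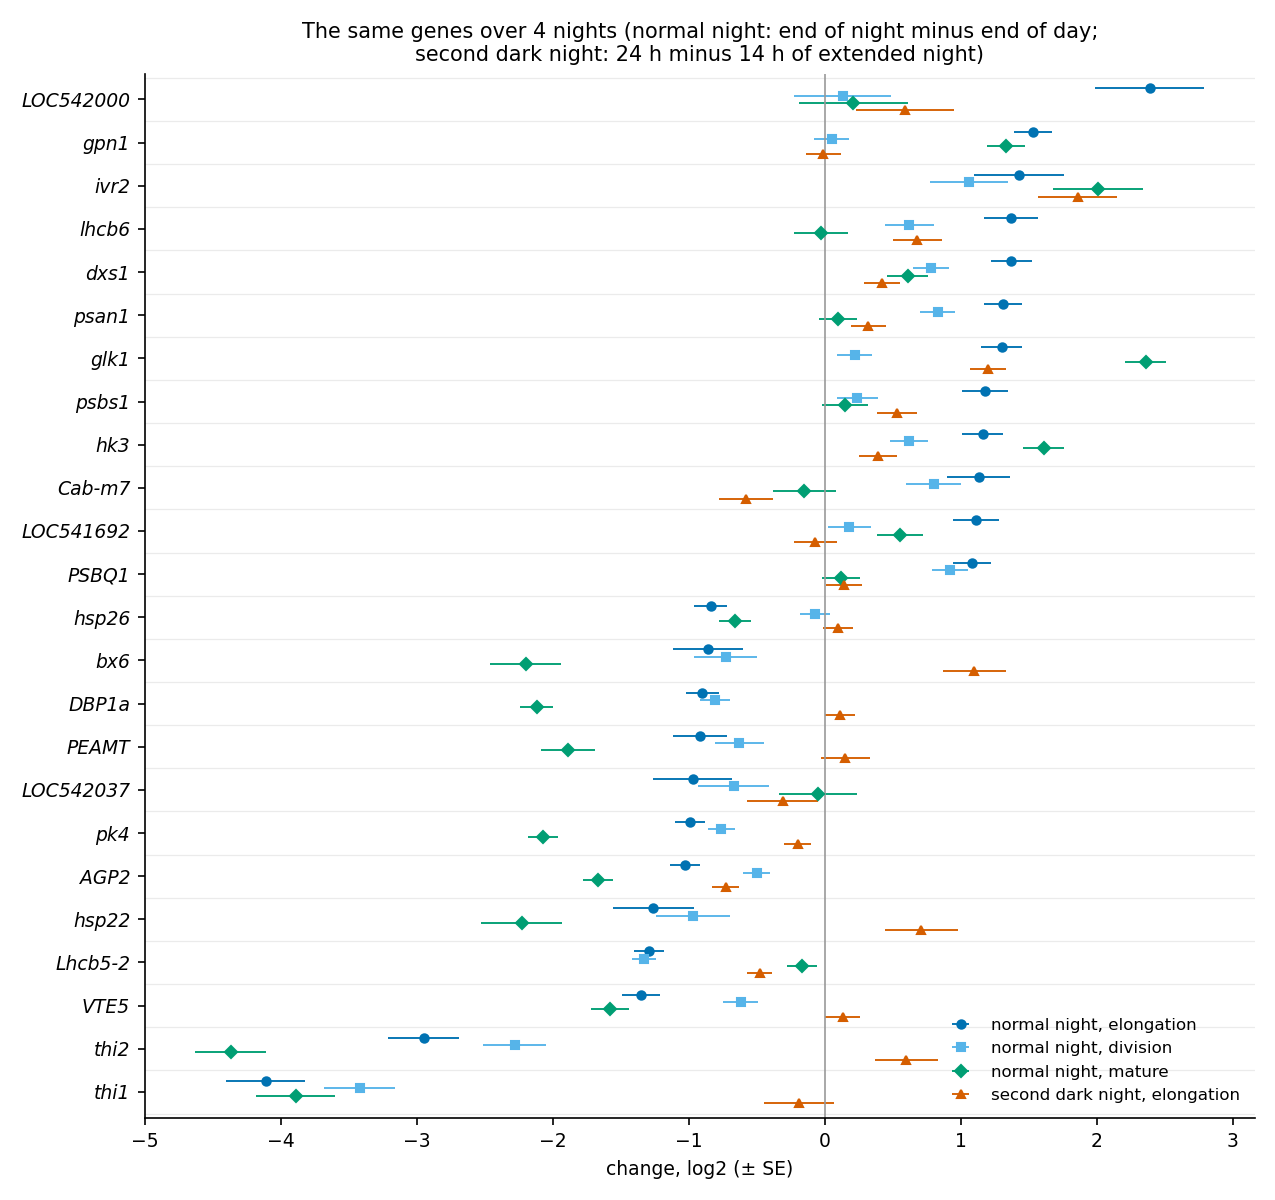
Change over 4 nights (x axis, log2 ± SE) of the 24 genes with the largest called rise or fall over the normal night in the elongation zone. Circles, squares and diamonds are the normal night (end of night minus end of day) in the elongation, division and mature zones, and triangles are the second dark night of the elongation zone (24 h minus 14 h of extended night); *thi1* fell in all 3 zones over the normal night and lay at -0.19 over the second dark night.

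A second night passed in the dark without a day before it. The 14 h and 24 h arrays of the extended night fall at the clock hours of the end of the day and the end of the night, so their difference covers the same hours in plants that saw no light in between, and it shares no array with the normal night. In the elongation zone 3877 probe sets changed over those hours (22.1%). Of the 1106 normal-night calls 440 were called again (39.8%, or 11.3% of the later calls): 148 rose and 108 fell on both nights, 78 rose first and fell later, and 106 did the reverse. Signs matched in 52.9% of the normal-night calls, and across all probe sets the changes of the 2 nights had a Pearson correlation of 0.03 over probe sets, which are not independent replicates. The corresponding correlation with the division zone's normal night was 0.52, where same-numbered end-of-night arrays deviated together, and with the mature zone's 0.31.

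The difference between the nights was called for 2323 probe sets (13.2%; 1405 without end-of-day replicate 1 and 1543 without end-of-day replicate 2). Of the genes named here *thi1* and *thi2* differed most. *thi1* changed by -0.19 and *thi2* by 0.60 over the second dark night, so the nights differed by -3.92 ± 0.39 (limma adjusted p = 1.5e-08) and -3.55 ± 0.34 (1e-08). *SnrK1*, which rose over the normal night, fell by 1.92 over the second, a difference of 2.63 ± 0.23 (1.8e-09). *hsp22* and *bx6* fell over the normal night and were 0.71 (not called) and 1.10 (called) higher over the second, differing by -1.97 ± 0.40 (0.00085) and -1.96 ± 0.34 (0.00016). LOC542000 rose by 0.59 without a call, a difference of 1.80 ± 0.54 (0.023). *glk1* and *ivr2* rose on both nights: *glk1* by 1.20 and *ivr2* by 1.86 over the second, and neither differed between the nights (0.10 ± 0.20 and -0.43 ± 0.44, limma adjusted p = 0.81 and 0.60).

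The levels at all 5 times place these genes. *thi1* had means of 10.94 by day, 6.84 at the end of the night, 6.46 at 6 h, 9.70 at 14 h and 9.51 at 24 h, so its low lay at the end of the night and at 6 h, and it stood higher again at 14 h in the dark. *VTE5* ran 9.31, 7.96, 8.29, 9.70 and 9.83, low at the same 2 times. *SnrK1* rose from 7.02 and 7.73 to 9.56 and 10.39 and was at 8.47 at 24 h, its highest mean being at 14 h. In the long dark the antenna gene *Cab-m7* and the photosystem I gene *psah1* parted: *Cab-m7* had means of 9.22, 10.35, 11.10, 7.95 and 7.37, while *psah1* had 9.53, 10.58, 11.14, 10.81 and 10.49. *glk1* ran 6.62, 7.92, 6.68, 5.44 and 6.64 and *ivr2* 9.84, 11.27, 10.77, 8.22 and 10.08, both lowest at 14 h. These later levels are given as values only, since comparisons with the end of the night would share its arrays.

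**Figure D5:**
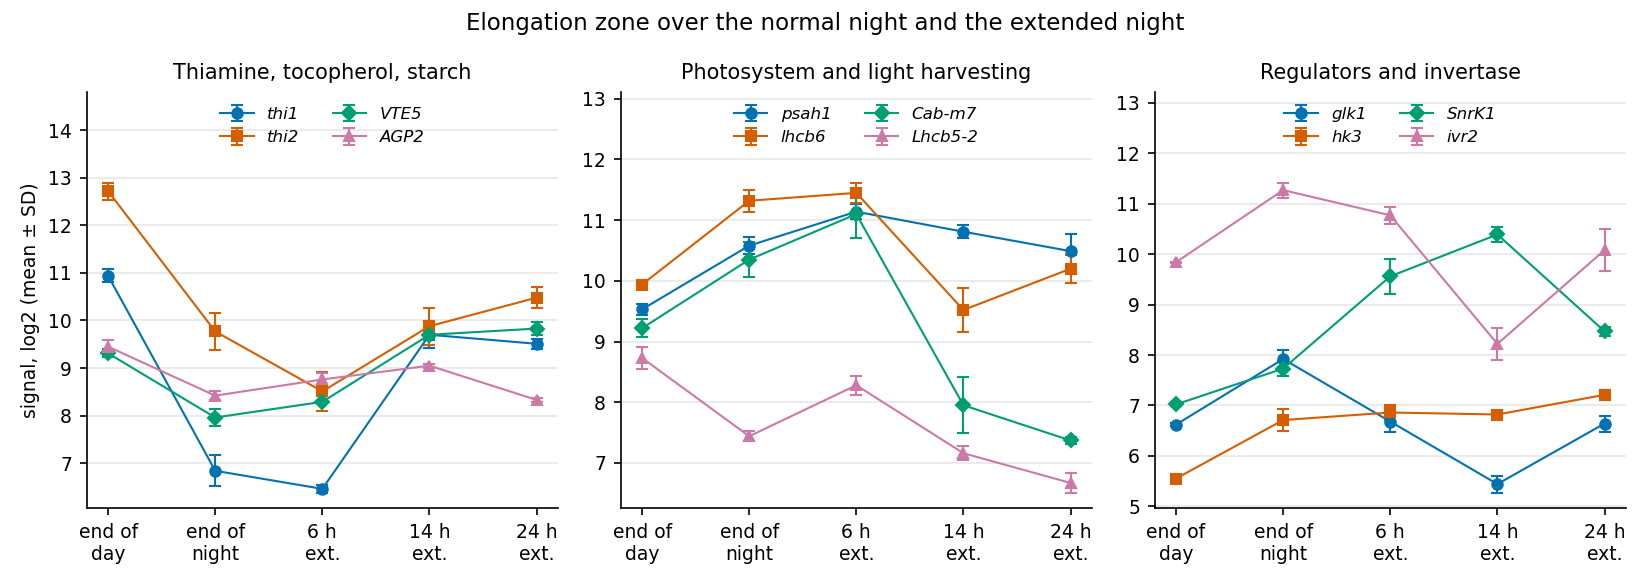
Mean log2 signal ± SD (y axis) in the elongation zone on end-of-day (2) and end-of-night (3) arrays and on 3 arrays each for 6, 14 and 24 h of extended night, for 4 genes a panel. *thi1* and *VTE5* are lowest at the end of the night and 6 h, *Cab-m7* and *psah1* are highest at 6 h, and *glk1* and *ivr2* are highest at the end of the night.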

How the data were processed

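The deposited values are log2 signal intensities per probe set of an Affymetrix maize array, made by the authors with RMA, as the submitters' processing notes name it. The values lie between 2.56 and 14.41 and were not transformed further. The sources used here give no RMA version. The columns of 3 samples hold no values, end-of-day replicate 3 of the elongation zone among them, which leaves 42 arrays. Of 17734 probe sets, 113 control and 66 reporter or selection probe sets were left out and 17555 tested. The platform annotation names 1 gene for 1452 probe sets and several for 1, and none for 16102; these are 1108 genes, of which 1060 matched the RefSeq gene table, from which only names were taken (assembly Zm-B73-REFERENCE-NAM-5.0). The brightest probe set stands for a gene.

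Means of 15 groups were fitted to all arrays with limma 3.58.1 in R 4.3.3 (lmFit, eBayes; 27 residual and 4.01 prior degrees of freedom), with Benjamini-Hochberg adjustment over the probe sets of a comparison. The median SE of the elongation-zone night was 0.13. Nothing in the labels says that replicates came from separate growth runs, so p-values measure the spread between pools of plants. In simulated data 41.9% of changes of 0.5, 90.9% of 1 and 97.2% of 2 were found, with 7 false among 163 calls. There 62, 66 and 72 of 17555 probe sets were changed. The noise was normal and independent between arrays, with 1 SD per probe set pooled over all zones. The real arrays differ in spread between zones and in part deviate together, so these shares may not hold for them. Named genes are the 12 largest called rises and falls, up to 4 called members of each of 33 symbol lists with all members of lists of 3 or fewer, up to 6 genes for each test of a difference, and zone markers. The members and lists were chosen with earlier results of these data known; *Lhcb5-2*, *L-FNRI*, *L-FNRII* and *zSSIIb* were added to their lists after the values were seen, because their symbols had been missed. The number of arrays limits the precision. Whether shared replicate numbers pair the end-of-day and end-of-night arrays could not be decided. The correlations of deviations were 0.056 for number 1 and -0.239 for number 2. With 2 end-of-day arrays their deviations mirror each other, so both values rest on 1 difference between those arrays.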

Additional observations from a re-analysis of the deposited data

Results flagged for a closer look

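Each gene below was picked out because its change over the normal night in the elongation zone differed from the change in another zone or over the second dark night, by limma's test of the difference itself (adjusted p under 0.05 over all probe sets). Values are log2 differences of the 2 changes, elongation-zone normal night minus the other, and no explanation was tested.

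Against the division zone the values were 2.26 for LOC542000, 1.48 for *gpn1*, 1.08 for *glk1*, 0.94 for *psbs1*, 0.90 for *sh2* and -0.76 for *hsp26*, whose signals lay below the dim level of the elongation-zone arrays. Against the mature zone they were 2.18 for LOC542000, 1.42 for *thi2*, 1.40 for *lhcb6*, 1.39 for *sh2*, -1.44 for *pip2c* and -2.44 for *pip2b*. Against the second dark night they were 2.63 for *SnrK1*, 1.80 for LOC542000, -1.96 for *bx6*, -1.97 for *hsp22*, -3.55 for *thi2* and -3.92 for *thi1*. The normal-night calls of *sh2*, *bx6*, *hsp22*, *SnrK1*, *pip2b* and *pip2c* that stand behind some of these were lost without 1 or more single arrays.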

How the results depend on the processing

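The count of 1106 for the normal night was 1648 in the 14 elongation-zone arrays alone, 1527 in the 5 compared arrays alone, 2563 with array weights, 1013 with arrays centred on their medians, 1103 with trend and robust moderation and 1146 of 11935 without dim probe sets. Without 1 array it lay between 333 and 907. With the replicate number as a block it was 1046. The block took the calls of *pip2b*, *pip2c* and LOC542037 and no other of the 47 called named genes. Whether the replicate numbers pair the end-of-day with the end-of-night arrays could not be decided. In the fits of 4 groups it was 2667 with the division zone and 362 with the mature zone. The difference from the division zone (103) gave 405 calls in the 4 compared groups alone, 620 with array weights and 26 to 102 without 1 array. In fits added after the data were seen it gave 251 in the 29 division- and elongation-zone arrays alone and 768 there with same-numbered arrays of a time as a replicate block. That from the mature zone (4343) gave 2392 in its 4 groups alone and 3201 to 3999 without 1 array. The difference between the nights (2323) gave 3545 in the elongation-zone arrays alone, 4705 with array weights and 1405 to 2197 without 1 array. In all these ranges only the 5 elongation-zone arrays of the normal night were left out in turn. No array of another zone or of the extended night was left out, so the ranges cover 1 side of each difference. No named gene changed its direction past the threshold under any of these settings; 23 of 47 called genes lost their call in at least 1 of them, 20 without end-of-day replicate 1. Of the named genes not called, *GBF1*, *ICL*, *cncr1*, *expA1*, *gl1*, *ocl1*, *pep1*, *rbcS* and *rca1* gained a call in 1 or more settings. The causes were not tested. The 2 end-of-day arrays limit what can be detected, above all changes near 0.5, and promoter sequences and motifs were not analysed here.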
